A study of Mus musculus with 285 samples.

Results

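The genes described here are 5 genes of the circadian clock, Arntl, Per2, Dbp, Hlf and Nr1d1, measured in skeletal muscle of 285 F2 mice. They were chosen by symbol: every probe annotated to one of the 5 symbols was taken. This gave 5 probes, 1 per gene, of 23560 on the array, and 5 of 11622 named genes. Each probe had a value in all 285 mice, and none of these values lay at the bounds of the deposited scale.

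The mice were females and males, second-generation offspring of a cross, made both ways, between the strains C57BL/6J and C3H/HeJ. Their food was chow (4% fat) for the first 8 weeks of life, followed by 12 weeks of a Western diet that held 42% fat and 0.15% cholesterol. They were killed at 20 weeks of age after a 12-hour fast. Each 2-colour array compared the RNA of 1 mouse, labelled with Cy3, with a pool of all mice, labelled with Cy5. The labels name neither the muscle nor the sex, genotype or hour of killing of a mouse, so all mice formed 1 group, the replicates were separate animals, and no untreated or other control group exists within it. Values are log2 ratios of mouse over pool, so they carry no level in the tissue. The genes cannot be ordered by abundance, and the tissue label cannot be checked against marker levels.

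In the mammalian clock, ARNTL (also called BMAL1) pairs with CLOCK or NPAS2 and switches on genes with E-box sequences. Among these are the Per and Cry genes, whose proteins inhibit the pair, and Nr1d1, whose protein REV-ERB alpha represses Arntl through ROR elements. Dbp and Hlf encode activators of the PAR bZIP family, which bind D-box sequences and carry the rhythm to output genes. In skeletal muscle, as in liver, Arntl RNA and the RNA of its targets Per2 and Dbp are known to peak at different times of day, Arntl roughly opposite its targets.

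Of the 5 genes, 4 had a promoter window in the RefSeq table (build GRCm38.p6), which holds 250 bases before and 50 bases after each annotated start. Arntl had a pair of windows, which made 5 windows in all. The 3 printed here are those of the activator, of its repressor and of the output gene that Arntl opposed most closely in these mice. They were searched on both strands for the E-box CACGTG, the related E'-box CACGTT, the D-box letters TTATGTAA or TTACGTAA, and the last letters of a ROR element, TAGGTCA or TGGGTCA. Capitals mark a match. The windows are chr7:113207261-113207560 on the plus strand for Arntl, chr11:98775328-98775627 on the minus strand for Nr1d1 and chr7:45704997-45705296 on the plus strand for Dbp.
Arntl: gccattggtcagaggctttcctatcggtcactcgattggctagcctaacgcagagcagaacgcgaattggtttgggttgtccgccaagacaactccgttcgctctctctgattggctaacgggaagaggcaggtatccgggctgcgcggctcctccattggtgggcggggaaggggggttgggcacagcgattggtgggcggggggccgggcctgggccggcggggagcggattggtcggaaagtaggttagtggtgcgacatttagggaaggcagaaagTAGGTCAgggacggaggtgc
Nr1d1: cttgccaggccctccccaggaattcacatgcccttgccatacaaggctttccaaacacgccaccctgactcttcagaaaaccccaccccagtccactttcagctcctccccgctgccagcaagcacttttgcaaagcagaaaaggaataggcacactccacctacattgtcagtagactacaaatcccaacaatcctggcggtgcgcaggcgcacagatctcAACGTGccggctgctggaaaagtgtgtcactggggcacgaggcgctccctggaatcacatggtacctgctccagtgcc
Dbp: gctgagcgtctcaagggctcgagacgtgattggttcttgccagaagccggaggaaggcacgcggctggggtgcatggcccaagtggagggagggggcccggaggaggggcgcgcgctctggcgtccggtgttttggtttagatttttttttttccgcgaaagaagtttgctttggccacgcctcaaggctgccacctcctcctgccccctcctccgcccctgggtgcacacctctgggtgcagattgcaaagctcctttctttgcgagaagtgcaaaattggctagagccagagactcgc
The Arntl window held TAGGTCA at position 31 after the start, and the Nr1d1 window held AACGTG, which reads CACGTT on the other strand, from position -28. No match to these letters lay in the Dbp and Hlf windows or in the other Arntl window. Among 32851 windows of the same length, 7.15% held CACGTG, 4.68% CACGTT, 1.06% either form of the D-box and 6.45% either ROR ending. These matches describe letters and were not tested for binding.

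Arntl lies at chr7:113178471-113314126, and its ratio ranged from -1.60 in mouse 195 to 1.05 in mouse 67 with a median of -0.08 (SD 0.49, n = 285). In 2 mice it was at least 2-fold above the pool and in 11 at least 2-fold below it. Of the core repressors, Per2 (chr1:91415977-91459351) had the widest spread: it ranged from -2.10 in mouse 73 to 2.18 in mouse 317 with a median of 0.39 (SD 0.96, n = 285). It lay at least 2-fold above the pool in 64 mice and at least 2-fold below it in 37. All such counts rest on base 10, which the labels do not state. Read in base 2, no mouse reached 2-fold for Arntl, Per2, Dbp or Nr1d1, and 2 mice did for Hlf. The upper quartile of Per2 was 2.70-fold above the lower quartile, against 1.57-fold for Arntl.

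Nr1d1 (chr11:98767932-98775377) ranged from -1.77 in mouse 317 to 0.94 in mouse 68 with a median of -0.04 (SD 0.48, n = 285). All 10 mice with at least a 2-fold difference from the pool lay below it. Dbp (chr7:45705100-45710203) varied least among the 5, from -0.49 in mouse 158 to 0.79 in mouse 211 with a median of -0.12 (SD 0.25, n = 285), and no mouse reached a 2-fold difference. Hlf (chr11:90336535-90390917) ranged from -3.47 in mouse 342 to 3.33 in mouse 181 with a median of 0.04 (SD 0.52, n = 285). Those 2 mice stood far from the others: without them Hlf ranged from -1.78 to 1.43 with an SD of 0.44. The array of mouse 342 had a wider spread over all features than 98.9% of arrays, and that of mouse 181 than 93.3%. With every array divided by its own spread, Hlf ranged from -1.76 to 2.28 with an SD of 0.44, and 8 mice in place of 13 lay at least 2-fold from the pool.

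Set against the SDs of 21512 features (named genes and unnamed probes), which had a median of 0.21, Per2 stood at percentile 99.3, Hlf at 94.7, Arntl at 93.4, Nr1d1 at 93.1 and Dbp at 62.9. The plot of all mice by number shows the wide Per2 range beside the narrow Dbp range.

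**Figure D1:**
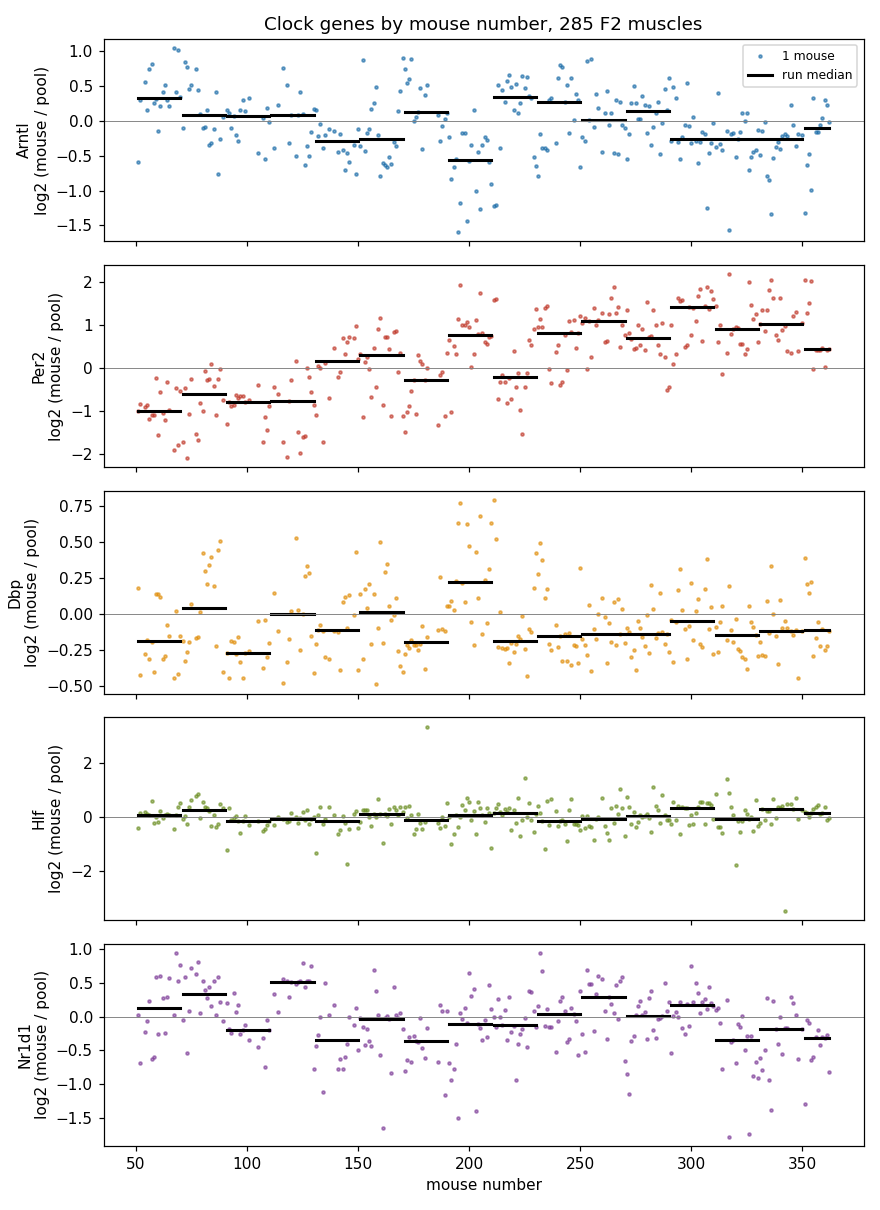
Log2 ratio of mouse over pool (vertical axes, each with its own scale) of the 5 clock genes against mouse number (horizontal axis); each point is 1 of 285 mice and each black bar the median of a run of 20 numbers. The Per2 run medians lie between -0.996 and 1.40, and Hlf has single mice at -3.47 and 3.33.

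Arntl and Dbp moved in opposite directions across mice. Pearson's r was -0.724 and Spearman's rho -0.711 (n = 285, permutation p = 1e-05 and adjusted p = 2.5e-05 over the 10 pairs of genes). Here 1e-05 is the smallest p that 100000 shuffles can give. Dbp lay on the other side of its median from Arntl in 215 mice and on the same side in 68. Mouse 195 had the lowest Arntl, -1.60, with Dbp at 0.63, and mouse 67 the highest Arntl, 1.05, with Dbp at -0.44. Without the 2 mice farthest from the Arntl median, r was -0.717. Labels give no array or dissection batch, so the mouse numbers were divided into 16 runs of 20. The relation was negative in all 16 runs, with r between -0.961 and -0.559.

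Arntl and Per2 were opposed as well, with r = -0.560 and rho = -0.543 (n = 285, permutation p = 1e-05, adjusted p = 2.5e-05). They lay on opposite sides of their medians in 192 mice and on the same side in 91. The value was negative in all 16 runs, from -0.959 to -0.181, and -0.551 without the 2 mice farthest from the Arntl median. Per2 and Dbp, both targets of ARNTL, moved together, with r = 0.401 and rho = 0.421 (n = 285, permutation p = 1e-05, adjusted p = 2.5e-05). The sides of the medians were shared by 181 mice and opposed in 102. In the runs r was positive in 16 of 16 and lay between 0.188 and 0.958, and it was 0.394 without the 2 mice farthest from the Per2 median.

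For the 3 genes together, 77 mice had Arntl low with Per2 and Dbp high, and 77 had Arntl high with Per2 and Dbp low. All 3 were high in 14 mice and all 3 low in 15. Mouse 317 carried the highest Per2, 2.18, beside an Arntl of -1.57 and a Dbp of 0.19. Mouse 211, with the highest Dbp at 0.79, had Arntl at -1.22 and Per2 at 1.57.

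**Figure D2:**
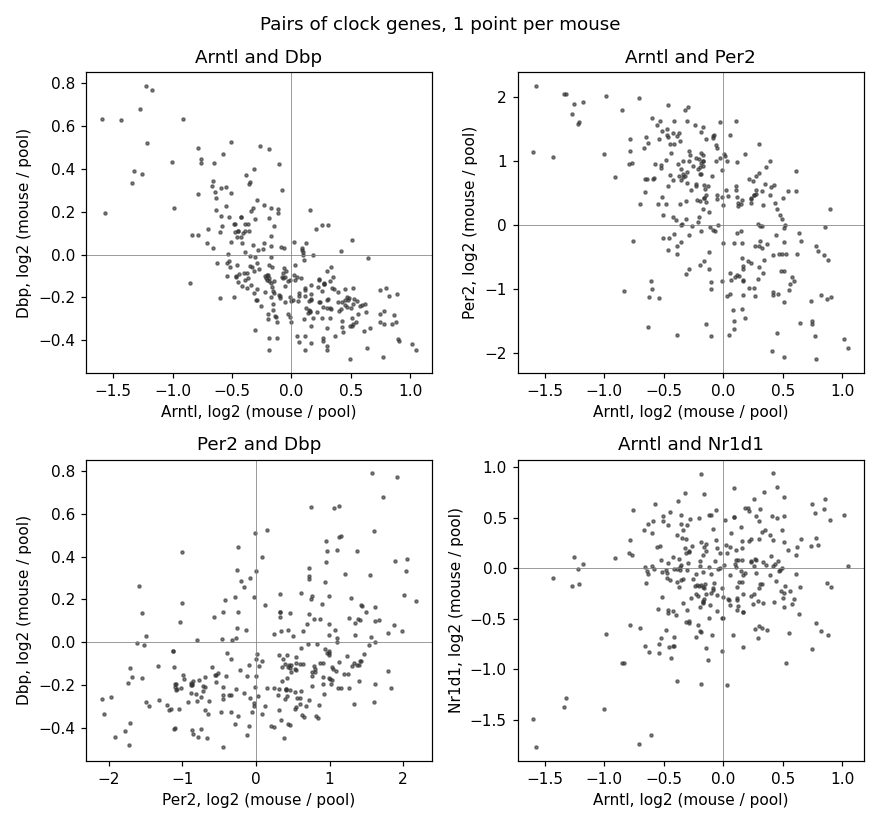
Log2 ratios of mouse over pool for 4 pairs of clock genes, with 1 gene on each axis and 1 point for each of 285 mice; grey lines mark the pool. Dbp falls along Arntl (r = -0.724), Per2 falls along Arntl (r = -0.560), Dbp rises along Per2 (r = 0.401), and Nr1d1 against Arntl forms a broad cloud (r = 0.276).

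Nr1d1, whose protein represses Arntl, did not oppose it across these mice: r was 0.276 and rho 0.172 (n = 285, permutation p = 1e-05 for r with adjusted p = 2.5e-05, and adjusted p = 0.00587 for rho). The value was positive in 10 runs and negative in 6, between -0.295 and 0.741, so the pooled relation did not hold in every run. Without the 2 mice with the most distant Arntl values it was 0.220. Mice 195 and 317 were low in both genes, with Nr1d1 at -1.49 and -1.77. Hlf and Nr1d1 rose together weakly, with r = 0.189 and rho = 0.208 (n = 285, permutation p = 0.00156, adjusted p = 0.00312), and r was positive in 14 of 16 runs.

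Pearson's r did not pass the threshold of 0.05 for the other 5 pairs. It was 0.106 for Dbp with Nr1d1 (permutation, adjusted p = 0.120), 0.102 for Per2 with Hlf (adjusted p = 0.120), -0.0993 for Per2 with Nr1d1 (adjusted p = 0.120), 0.0792 for Arntl with Hlf (adjusted p = 0.204) and 0.0220 for Dbp with Hlf (adjusted p = 0.710). By rank, Dbp with Nr1d1 (rho = 0.170) and Per2 with Hlf (rho = 0.173) passed, each with adjusted p = 0.00587 in the permutation test. Dbp and Hlf belong to 1 protein family and bind the same sequence, and the linear relation of their ratios did not pass the test in these 285 mice. The runs spread these 5 pairs over both signs, as the plot of run values shows. Shuffles treat the mice as exchangeable, while neighbouring numbers were alike for Arntl, Per2, Dbp and Nr1d1 (their correlations stand with the mouse numbers). For the 6 pairs among these 4 genes the permutation p values can therefore be too small, and so can those of the limma fits along them without a block, for features alike between neighbours. For Hlf, neighbours had r = -0.00987 over all mice, with the distant mice 181 and 342 among them. This r was not computed without those 2 mice, in whose absence Hlf differed between runs (limma F test, adjusted p = 0.00888). Likeness of neighbours is therefore not excluded for Hlf.

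**Figure D3:**
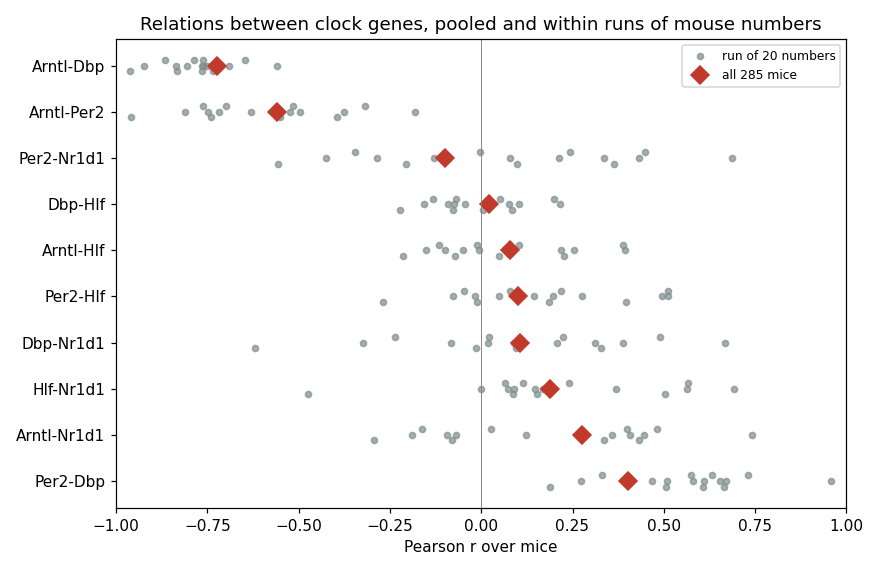
Pearson's r (horizontal axis) for the 10 pairs of clock genes (vertical axis), over all 285 mice (red diamonds) and within each of 16 runs of 20 mouse numbers (grey points, 12 to 20 mice each). Every run lies below 0 for Arntl with Dbp and Arntl with Per2 and above 0 for Per2 with Dbp, while the other 7 pairs have runs on both sides of 0 or, for Hlf with Nr1d1, 14 of 16 above it.

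The same relations were set against all other features with limma, regressing each of 21511 features on 1 clock gene at a time. A feature was called where its p, adjusted over all features, was under 0.05 and the absolute r at least 0.3. Along Arntl, 858 features were called (3.99%), 450 rising (2.09%) and 408 falling (1.9%), and 2 of the other 4 clock genes were among them, both falling. Dbp had the lowest r with Arntl of all 21511 features. It fell by 0.18 on the log2 scale per SD of Arntl (SE 0.010, limma adjusted p = 2.95e-43). Per2 had the fourth lowest, with a slope of -0.54 (SE 0.047, limma adjusted p = 7.31e-22).

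Along Dbp, 419 features were called (1.95%), 181 rising (0.841%) and 238 falling (1.11%), and Arntl had the largest absolute r of all. Per2 ranked 20 from the top of 21511, with a slope of 0.39 log2 per SD of Dbp (SE 0.052, limma adjusted p = 8.29e-10). Along Per2, 6629 features were called (30.8%), 2690 rising (12.5%) and 3939 falling (18.3%), and Arntl and Dbp were 2 of them. With that background a call along Per2 says little: Arntl ranked 218 from the bottom. Along Hlf, 2557 features were called (11.9%), 995 rising (4.63%) and 1562 falling (7.26%). Without mice 181 and 342 it was 1029 rising and 2545 falling, and with 5 array-wide components as covariates the balance turned to 1041 rising and 257 falling. Along Nr1d1 the count was 1304 (6.06%), with 603 rising (2.8%) and 701 falling (3.26%). Neither held any of the other 4 clock genes, 0 of 4 each. By both the unadjusted and the adjusted limma p, under 0.05, 1 of the 4 passed along Hlf and 2 passed along Nr1d1. They were Nr1d1 along Hlf (limma adjusted p = 0.00359), and Arntl (limma adjusted p = 2.34e-05) and Hlf (limma adjusted p = 0.00494) along Nr1d1. Each was left uncalled because its absolute r was under the minimum of 0.3.

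Among Arntl, Per2 and Dbp the absolute r was larger with the runs as a block and with 5 array-wide components removed than in the ratios as deposited. With the run of numbers as a block, r was -0.784 for Arntl with Dbp, -0.614 for Arntl with Per2 and 0.595 for Per2 with Dbp. After the first 5 components of all other features, computed without clock genes, were removed, it was -0.796, -0.871 and 0.774 for the same pairs. In that fit Per2 had the lowest r with Arntl of 21511 features and Dbp the lowest but 1.

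Per2 was the clock gene that followed these components most. Its r was -0.592 with component 1, which held 15.2% of the variance, and -0.348 with component 5, against -0.121 and 0.0884 for Arntl and 0.184 and -0.0462 for Dbp. With component 2, which held 6.91% of the variance, Arntl had r = 0.307 and Nr1d1 0.352, against -0.0703 for Per2 and 0.0670 for Dbp. Nr1d1 had r = -0.418 with component 4. Arntl with Nr1d1 had r = 0.221 after the 5 components were removed. These are descriptions over 285 mice, in which the points share arrays.

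A plane of the first 2 principal components of the 5 genes held 67.9% of their variance, 43.1% in component 1 and 24.8% in component 2. Arntl pointed to 173 degrees, Per2 to 8.95 and Dbp to 16.7, so that Arntl stood nearly opposite the others on component 1. Hlf at 91.3 degrees and Nr1d1 at 105 degrees lay along component 2. With the 5 array-wide components removed, Arntl stood at 180 degrees, Per2 at 0.744 and Dbp at 10.7. Nr1d1 stood at 109 degrees and Hlf at -90.5. The sign of each component was set so that Per2 was positive on component 1 and Nr1d1 on component 2. With the array-wide components removed, component 2 held 20.5% of the variance and Hlf with Nr1d1 had r = -0.0275. The side on which Hlf lay is therefore not a result. The angles describe correlation over mice. They are not hours of the day, since the hour of killing is not in the labels, and no p is attached to them.

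**Figure D4:**
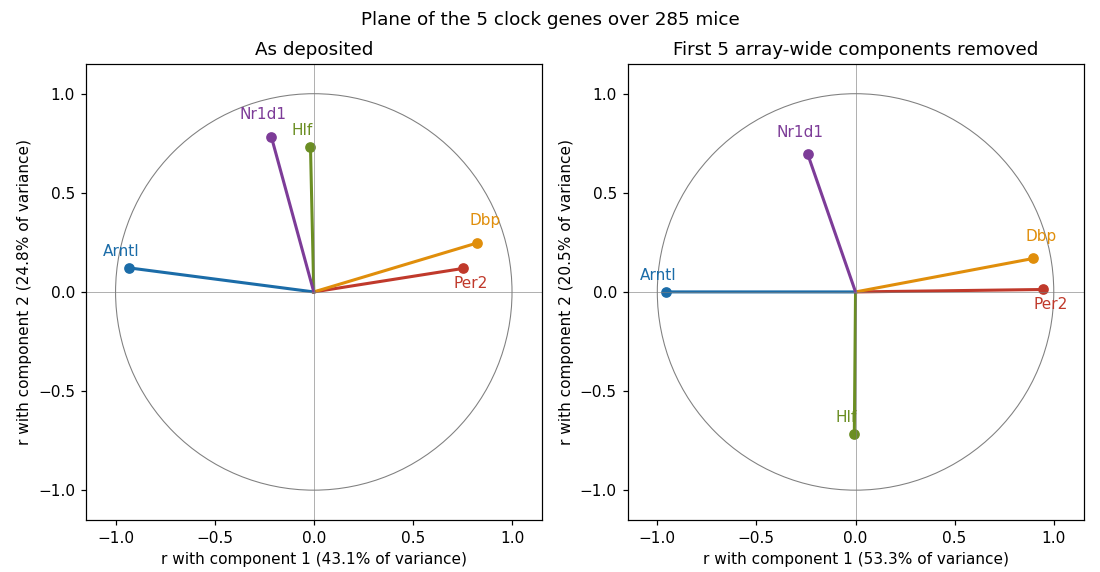
Correlation of each clock gene with component 1 (horizontal axis) and component 2 (vertical axis) of the 5 genes over 285 mice, as deposited (left) and with the first 5 array-wide components removed (right); the circle marks a correlation of 1. The axes were signed so that Per2 points right and Nr1d1 up in both panels. Arntl then points left and Dbp right in both, and Hlf points up on the left at 91.3 degrees and down on the right at -90.5.

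Of the lists of other clock genes, 13 core genes and 22 outputs had probes. Along Arntl, 2 of these 35 were called as rising and 4 as falling, 17.1% of the lists beside 3.99% of all features. The core list had a median r of -0.158, against 0.00027 over all features. That median was closer to that of all features with the probe of the largest SD per gene (-0.054) and with the run as a block (-0.055, against -0.013). With 5 array-wide components as covariates it was -0.089, on scaled arrays -0.159 and outside mouse numbers 51 to 90 and 271 to 310 -0.149. The falling genes were Nr1d2, which encodes the second REV-ERB repressor (r = -0.490, slope -0.10 log2 per SD, SE 0.011, limma adjusted p = 6.88e-16), Bhlhe41, which encodes the E-box repressor DEC2 (r = -0.338), the Per2 paralog Per1 (r = -0.307) and the deubiquitinase gene Usp2 (r = -0.349). Rising genes were Nfil3, which encodes a D-box repressor (r = 0.417, slope 0.19, SE 0.024, limma adjusted p = 3.29e-11), and Ucp3, a mitochondrial carrier gene of muscle (r = 0.383). With the run of numbers as a block, Nr1d2, Nfil3 and Ucp3 were called, and Bhlhe41 (r = -0.271), Per1 (r = -0.166) and Usp2 (r = -0.270) were not. Per1 (r = -0.234) and Usp2 (r = -0.284) were not called outside mouse numbers 51 to 90 and 271 to 310 either.

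Dbp showed the mirror image for 3 of these genes. Along it Nr1d2 (r = 0.425) and Bhlhe41 (r = 0.348) were called as rising and Nfil3 (r = -0.442, slope -0.20, SE 0.024, limma adjusted p = 4.31e-12) as falling, while Bhlhe40, the DEC1 gene (r = 0.329), and the cold-inducible RNA-binding gene Cirbp (r = 0.360) also rose. That made 4 rising and 1 falling of 35, or 14.3%, beside 1.95% of all features. Bhlhe40 was not called with the run as a block (r = 0.292) or outside mouse numbers 51 to 90 and 271 to 310 (r = 0.270). The Arntl and Dbp relations of these genes were read on the same 285 arrays, in which Arntl and Dbp are themselves opposed. Nr1d2 was averaged over 2 probes.

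Along Per2, 8 of the 35 were called as rising and 2 as falling, which is 28.6%, near the 30.8% of all features called along Per2, so the count itself is no result about clock genes. Usp2 had the largest absolute r of all 21511 features (r = 0.864, slope 0.45, SE 0.016, limma adjusted p = 1e-82). Per1 (r = 0.626), the coenzyme Q gene Coq10b (r = 0.697), the osmotic stress factor Nfat5 (r = 0.592), Klf15 (r = 0.476), Cys1 (r = 0.475), the lipoprotein lipase gene Lpl (r = 0.344) and the purine enzyme gene Pnp (r = 0.307) rose too. Npas2, the partner of ARNTL (r = -0.351), and Pdk4, a kinase that restrains pyruvate oxidation (r = -0.331), fell. With the run of numbers as a block Usp2 stood at 0.721 and Per1 at 0.303, while Klf15 (r = 0.143) and Npas2 (r = -0.258) were no longer called, Lpl reversed to -0.172 and Pnp to -0.0391.

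Along Hlf, 3 of 35 were called as rising, Clock (r = 0.411), the sarcomere gene Tcap (r = 0.358) and Cys1 (r = 0.349), and the kinase gene Wee1 fell (r = -0.324). These 4 of 35 are 11.4%, near the 11.9% of all features called along Hlf. With the run of numbers as a block Wee1 was not called (r = -0.295). Tcap stood at 0.201 without mice 181 and 342. Along Nr1d1, Ppargc1a, a coactivator of mitochondrial genes, was the 1 gene of 35 called (2.86%, beside 6.06% of all features), falling with r = -0.339, and 0 of 13 core genes were called, while 6 had an unadjusted limma p under 0.05. Some core genes passed the adjusted p along Nr1d1 with an absolute r below 0.3, such as Csnk1d, a PER kinase gene (r = 0.281, limma adjusted p = 1.7e-05), and Bhlhe40 (r = 0.279, limma adjusted p = 1.81e-05). Nr1d2, the paralog of Nr1d1, had r = -0.103 (limma adjusted p = 0.152). With the run of numbers as a block the picture along Nr1d1 differed: 4 core genes and 2 outputs were called, all 6 rising, which is 17.1% of the lists beside 13% of all features. Ppargc1a was not called in that fit (r = -0.291).

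**Figure D5:**
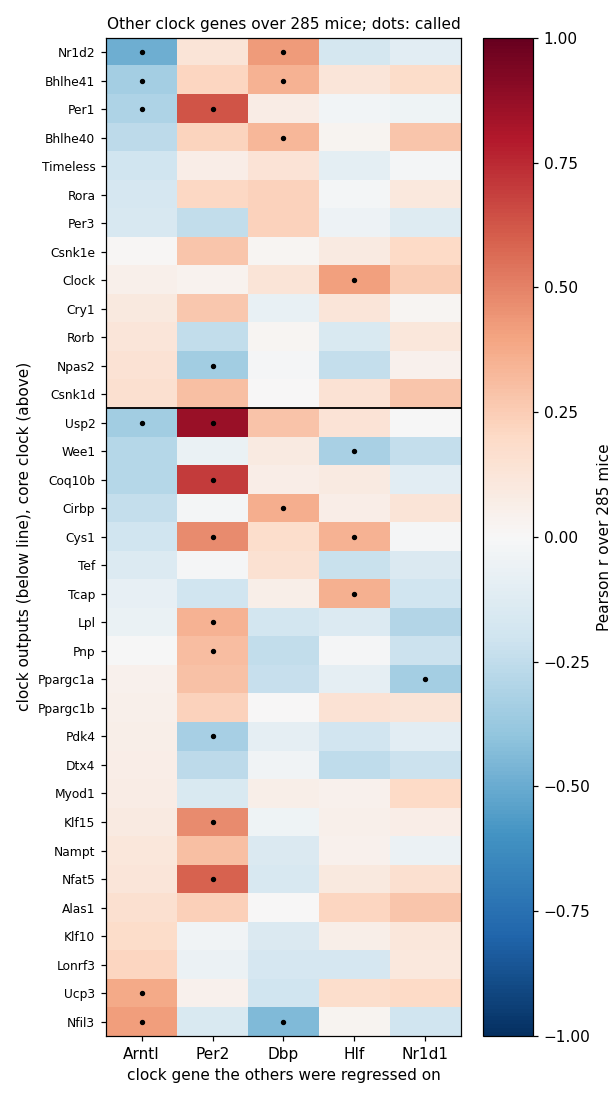
Pearson's r over 285 mice (colour) of 35 other clock genes (rows, core genes above the line and outputs below it) with each of the 5 clock genes (columns); dots mark called genes. Arntl and Dbp have opposite colours for Nr1d2, Bhlhe41 and Nfil3, and the darkest cell is Usp2 along Per2 at 0.864.

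Outside the clock lists, the named genes most like Arntl were Pank1, a kinase gene of coenzyme A synthesis (r = 0.650), Miga2, a mitochondrial outer membrane gene (r = 0.633), Uhrf2 (r = 0.622) and Sap30, a subunit gene of the SIN3 deacetylase complex (r = 0.592). The most opposed were Stard3, a sterol transporter gene of late endosomes (r = -0.556), Rabl6 (r = -0.512), the forkhead factor Foxo6 (r = -0.508) and PPAPDC3 (r = -0.467). Stard3 (r = 0.614) and PPAPDC3 (r = 0.552) were also the named genes most like Dbp, followed by the anion exchanger gene Slc26a6 (r = 0.477) and RHBDD3 (r = 0.452). Pank1 (r = -0.460), the stress gene Sesn1 (r = -0.464), the pattern receptor gene Tlr4 (r = -0.463) and the cell cycle inhibitor gene Cdkn1a (r = -0.444) were most opposed to Dbp. Likeness here is Pearson's r over the same 285 mice.

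Per2 was most like the nuclear corepressor gene Nrip1 (r = 0.840), Usp54 (r = 0.799), Hivep2 (r = 0.786) and Fam214a (r = 0.754). Most opposed to it were the homeobox gene Six4 (r = -0.751), FAM110B (r = -0.734), the mitochondrial ribosome gene Mrpl40 (r = -0.706) and Tssc4 (r = -0.702). With the run of numbers as a block Nrip1 stood at 0.609 and Six4 at -0.376.

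Hlf was most like Socs4, a gene of cytokine signal suppression (r = 0.743), the sphingosine phosphate lyase gene Sgpl1 (r = 0.734), Slc44a3 (r = 0.733) and the defensin gene Defb13 (r = 0.707). Without mice 181 and 342 these were 0.672, 0.668, 0.659 and 0.623. The most opposed were Kir3dl1 (r = -0.563), Adam24 (r = -0.507), the peroxidase gene Gpx1 (r = -0.501) and Havcr1 (r = -0.499). Nr1d1 was most like the phosphatase genes Dusp10 (r = 0.556) and Ptpn21 (r = 0.549), the transporter gene Slco3a1 (r = 0.526) and Trim8 (r = 0.522), and most opposed to the lipase gene Pnpla3 (r = -0.526), Olfr315 (r = -0.458), Serpini1 (r = -0.458) and Gm4859 (r = -0.457).

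Along the order of mouse numbers, Per2, Arntl, Nr1d1 and Dbp differed between runs, and Hlf did not pass the test. Of 21512 features, 84.6% differed between the 16 runs (limma F test, adjusted p under 0.05), so a difference of this kind was the rule on these arrays. Runs held 61.0% of the variance of Per2 (limma adjusted p = 6.88e-45), 27.9% of that of Arntl (adjusted p = 2.86e-12), 27.1% for Nr1d1 (adjusted p = 1.01e-11), 20.4% for Dbp (adjusted p = 1.68e-07) and 6.56% for Hlf (adjusted p = 0.237). Without mice 181 and 342 Hlf passed as well, with 10.9% (limma adjusted p = 0.00888). The median over all features was 18.6%.

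Per2 had a median of -0.996 in mice 51 to 70 and of 1.40 in mice 291 to 310, and its r with the mouse number was 0.706 (rho 0.697, n = 285, permutation p = 1e-05, adjusted p = 5e-05 over 5 genes, 0.703 without the 2 most distant mice). Arntl had r = -0.226 with the number (permutation, adjusted p = 0.000175), Nr1d1 -0.218 (adjusted p = 0.000283), Hlf 0.0514 (adjusted p = 0.484) and Dbp -0.0112 (adjusted p = 0.851). The run of mice 191 to 210 had the lowest Arntl median, -0.56, with the highest Dbp median, 0.22, and a Per2 median of 0.77. The next run, mice 211 to 230, had Arntl at 0.34, Dbp at -0.19 and Per2 at -0.20. Each mouse was also set against the next mouse in the order of numbers, in which some numbers are absent. The r between such neighbours was 0.693 for Per2, 0.465 for Arntl, 0.387 for Dbp, 0.317 for Nr1d1 and -0.00987 for Hlf. Its median over all features was 0.202. Since shuffles treat the mice as exchangeable, the permutation p values of Per2, Arntl, Dbp and Nr1d1 with the number can be too small. What the mouse number stands for is not in the labels, so these values do not say which difference between mice it follows.

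Whether a relation differed along the numbers was tested as an interaction between the clock gene and the 142 higher-numbered against the 143 lower-numbered mice. Such an interaction passed in limma for 23.2% of features along Arntl, 13.6% along Per2, 1.22% along Dbp, 34.5% along Hlf and 39.7% along Nr1d1. Among the clock genes it passed for 1 of 20 ordered pairs, Dbp along Arntl, with a slope of -0.15 log2 per SD of Arntl in the higher-numbered mice and -0.21 in the lower-numbered mice (difference 0.059, SE 0.020, limma adjusted p = 0.0218). Per2 along Arntl had slopes of -0.54 in the higher-numbered and -0.54 in the lower-numbered mice, a difference of -0.0014 (SE 0.069, limma adjusted p = 0.991). Per2 with Dbp had r = 0.520 in the higher-numbered and 0.632 in the lower-numbered mice, both above the 0.401 over all mice.

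Scores of other gene lists were set beside each clock gene, as mean z values, in 50 relations. Of these, 23 passed an adjusted p of 0.05 and 6 had an absolute r of at least 0.3, against 27 and 8 with the run of numbers as a block. Per2 had r = -0.521 and rho = -0.484 with oxidative phosphorylation genes (5 measured), and -0.436 with the run as a block. With glucocorticoid response genes (7 measured) it had r = 0.445 and rho = 0.423, and with the run as a block -0.0427, so this relation did not hold within runs. Arntl had r = 0.381 and rho = 0.441 with heat shock genes (7 measured) and 0.362 with the block. Dbp had r = -0.372 and rho = -0.337 with FoxO and fasting genes (7 measured, Sesn1 and the clock output Pdk4 among them) and -0.364 with the block. With the block 3 more relations reached 0.3: Per2 with the same FoxO and fasting genes at -0.422, against 0.0441 without the block, Arntl with them at 0.326, against 0.208, and Per2 with fast fibre genes (4 measured) at -0.318, against -0.186. These 3 had a permutation, adjusted p = 4.17e-05 in the blocked values.

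Nr1d1 had r = -0.350 and rho = -0.271 with white adipocyte genes (6 measured, Lpl among them) and -0.315 with the block. In whole muscle, fewer fat cells and less RNA per fat cell cannot be told apart. Slow fibre genes and tendon genes each split the mice into separate clusters. Relations with these scores used the larger cluster only, of 223 mice for slow fibre and 203 for tendon genes. With slow fibre genes Nr1d1 had r = -0.310 and rho = -0.299, and -0.317 with the block. All 6 relations with an absolute r of at least 0.3 without the block had permutation p of 1e-05 for r and adjusted p = 5.56e-05. These shuffles also treat the mice as exchangeable, so p values of score relations without the block can be too small where neighbours were alike. Removing the 2 mice farthest from the clock gene's median left r at -0.505, 0.426, 0.378, -0.363, -0.353 and -0.277 in the order given. With the slow fibre, tendon, adipocyte, macrophage and immediate early scores as covariates, r was -0.790 for Arntl with Dbp, -0.576 for Arntl with Per2 and 0.442 for Per2 with Dbp.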

How the data were processed

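Per the labels, RNA of each mouse (Cy3) was hybridised against a pool of all samples (Cy5) on a 2-colour array. Scanner, background correction and normalization are not given in the sources used here. The authors deposited 1 value per probe and mouse, read here as the log10 ratio of mouse over pool: values stop at exactly 2 and -2 (471 at the upper bound and 178 at the lower). A pool of all mice puts the mean linear ratio of a gene near 1. It was 0.796 for Eif2s3y read this way against 23.2 with the sign turned (0.751 against 1.92 in base 2), and 0.942 against 3.43 for Kdm5d. Among the clock genes read this way, Per2 lay farthest from 1, at 1.44. Hlf had 1.08, Arntl 1.01, Nr1d1 0.991 and Dbp 0.971, and their ratios in base 2 were not computed. Between arrays, the median r over features was 0.0743 and the lowest -0.743, with 2.35% of array pairs below -0.3. The direction was kept, since the labels state the dyes and single mice can oppose each other relative to their pool. In base 2 every log2 value shrinks by 1 factor, and correlations stay as they are. Signal over background is unknown, and the number of arrays limits the precision.

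Probes with a value on 80% of arrays were kept (23510), missing values (0.0972%) were set to the probe mean, symbols were updated by Entrez identifier, probes of a gene were averaged, and log10 ratios were turned into log2 ratios. Coordinates of the clock genes were taken from RefSeq by Entrez identifier. Promoter windows were matched by symbol, and genes of the lists by symbol or RefSeq synonym. Correlations (scipy 1.17.1, numpy 2.4.6) had two-sided permutation tests of 100000 shuffles with Benjamini-Hochberg adjustment. Fits over all features used limma 3.58.1 in R 4.3.3, which on simulated slopes of 0.5 and 1 SD called 100 of 100 changed features each with 0 false calls. The simulation shuffled the mice separately for each feature, which removes the likeness of neighbouring numbers and the array-wide components. It therefore cannot show how many calls on the real arrays are false. No clock gene fell into clusters (normal mixture, BIC gain over 10, means over 3 SD apart, 5% of mice in each). Named genes were the 5 clock genes, called genes of the clock lists, and for each clock gene the 4 named genes with the highest and the 4 with the lowest r among called genes outside those lists. The 5 genes and the lists were chosen with earlier results of these data known. Csnk1d and the uncalled values of Bhlhe40 and Nr1d2 along Nr1d1 were named after their values were seen. Alternatives covered probe choice, array scaling, arrays of outlying spread, parts of the mouse numbers, runs as a block, a smooth trend, array-wide components, score covariates and, chosen after seeing the data, the removal of mice 181 and 342.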

Additional observations from a re-analysis of the deposited data

Results flagged for a closer look

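The relation of Dbp with Arntl differed between mice with higher and lower numbers. Dbp had a slope of -0.15 log2 per SD of Arntl in the 142 higher-numbered mice (r = -0.704) and of -0.21 in the 143 lower-numbered mice (r = -0.756). The interaction, higher minus lower, was 0.05915 (SE 0.020, limma adjusted p = 0.0218), and both slopes were negative. On the same test 23.2% of all features differed along Arntl. With Arntl regressed on Dbp instead, the difference did not pass (limma adjusted p = 0.502). After each array was scaled by its own SD, the first test gave an adjusted p of 0.0694.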

How the results depend on the processing

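The opposition of Arntl to Dbp and to Per2 kept its sign and passed the test under every alternative run. Per2 with Dbp kept its sign and missed the threshold by r, though not by rank, inside mouse numbers 51 to 90 and 271 to 310 (r = 0.262, adjusted p = 0.0580; rho = 0.334, adjusted p = 0.0110; permutation, 76 mice). In those mice Arntl with Nr1d1 was 0.0459, Hlf with Nr1d1 0.0540 and Dbp with Hlf -0.00312, while Dbp with Nr1d1 rose to 0.312 and passed. In the higher-numbered mice Arntl with Hlf was -0.0511, against 0.208 with a pass in the lower-numbered mice. Dbp with Hlf was -0.0135 and Hlf with Nr1d1 0.0797 in the higher-numbered mice. With the run as a block Per2 with Hlf passed (0.146), Per2 with Nr1d1 turned to 0.0699 and Dbp with Hlf to -0.00533. Removing a smooth trend gave 0.0857 for Per2 with Nr1d1 and 0.154 for Dbp with Nr1d1. Removing 1 array-wide component gave -0.0863 for Per2 with Hlf, -0.231 for Per2 with Nr1d1 and 0.136 for Dbp with Nr1d1; removing 5 gave -0.0133 and -0.201 for the first 2 of these and -0.0275 for Hlf with Nr1d1. Scaled arrays gave -0.137 for Per2 with Nr1d1. Without mice 181 and 342 Per2 with Hlf passed (0.149), and runs held 10.9% of the variance of Hlf (limma adjusted p = 0.00888).

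Called features numbered 3352 for Per2 and 2806 for Nr1d1 with the run as a block, 1305 for Per2, 1298 for Hlf and 68 for Nr1d1 with 5 components as covariates, and 794 for Nr1d1 on scaled arrays. Of 35 other clock genes, those called were 3 along Arntl (8.57%, beside 2.93% of all features) and 6 along Nr1d1 (17.1%, beside 13%) with the block, 10 along Arntl (28.6%, beside 3.79%), 2 along Hlf (5.71%, beside 6.03%) and 2 along Nr1d1 (5.71%, beside 0.316%) with 5 components, and 2 along Nr1d1 (5.71%, beside 4.71%) outside numbers 51 to 90 and 271 to 310. Along Per2, Lpl turned to -0.172 and Pnp to -0.0391 with the block, and Lpl to -0.0217, Pnp to -0.0826 and Nfat5 to -0.0230 with 5 components. Per2 with glucocorticoid genes turned to -0.0427 with the block. The difference between higher and lower numbers had adjusted p = 0.0694 for Dbp along Arntl on scaled arrays and 0.886 inside against outside those numbers, 0.0317 for Arntl and 0.0353 for Nr1d1 along Hlf without arrays of outlying spread, and 0.0317 for Nr1d1 along Hlf on scaled arrays. In the plane of 5 genes with 13 more core genes Arntl stood at 148, Dbp at -26.9 and Nr1d1 at 79.9 degrees; with 5 components removed Hlf stood at -90.5. Read in base 2, SDs were 0.15 for Arntl, 0.29 for Per2, 0.075 for Dbp, 0.16 for Hlf and 0.14 for Nr1d1. Each clock gene had 1 probe, so the choice of probe could not move the pairs. The cause of these changes was not tested. No paired analysis was possible because the labels give 1 group.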
